A study of Mus musculus with 670 samples.

Results

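The collagen-processing enzymes are the 10 genes P4ha1, P4ha2, P4hb, Plod1, Plod2, Plod3, Serpinh1, Pcolce, Lox and Loxl1, taken by symbol from a count table of 55604 genes. All 10 were found in it. Their levels were measured in single skeletal stem cells, the cells that form bone, cartilage and stroma, sorted by flow cytometry from long bones of untreated male mice. Each well was sequenced by SmartSeq2, which reads full-length transcripts of 1 cell. The ages were postnatal day 3 (plate 9), 2 months (plates 1, 3 and 4) and 24 months (plates 2, 5 and 12), with no culture and no treatment at any age. The labels give neither a strain nor an animal, and each age was therefore 1 sample: no p-value is given, and differences between plates of an age are a description of spread that may be technical.

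A collagen chain passes through these enzymes in order. Inside the endoplasmic reticulum, prolyl 4-hydroxylase modifies prolines that keep the triple helix stable at body temperature, lysyl hydroxylases modify lysines that later carry sugars and cross-links, and a collagen chaperone holds the folded helix. Outside the cell, the end pieces of procollagen are cut off with the help of an enhancer protein, and lysyl oxidases start the cross-links that give bone and cartilage matrix its strength.

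Wells entered the comparisons only with 1000 genes or more, 50000 gene reads or more and a mitochondrial share below 20%. That left 68 of 95 wells on plate 9, 15 of 96, 70 of 96 and 69 of 95 on plates 1, 3 and 4, and 5 of 96 on each 24-month plate. Passing cells held 93214 to 2246142 gene reads at postnatal day 3, 62919 to 3563660 at 2 months and 1131874 to 5994911 at 24 months. Their median number of genes was 2234.5 on plate 9 and 1698, 1759 and 1777 on plates 1, 3 and 4. On plates 2, 5 and 12 it was 1096, 1134 and 1227. The median spike-in share of all wells was 5.88%, 8.92% and 11.49% on plates 9, 3 and 4. On plates 2, 5 and 12 it was 96.85%, 98.90% and 95.14%, with plate 1 in between. The part of either in the lower levels at 24 months was not tested. No index pair was shared between wells, and no 2 passing cells had identical counts. Markers of other tissues were checked from fixed lists. At 24 months all 7 haematopoietic, 6 erythroid, 6 endothelial and 5 muscle markers were at 0 reads. At the younger ages the summed level of each of these lists was at most 33.6 CPM (counts divided by the plate's gene reads and put on a common scale), except for 255.1 CPM of erythroid genes on plate 1. The 8 cartilage markers summed to 81504 CPM at postnatal day 3, 63381 to 87749 CPM at 2 months and 2738 to 11301 CPM at 24 months, where Cnmd, Matn3, Col9a1 and Col9a2 were at 0. The 8 osteoblast markers summed to 1125 CPM at postnatal day 3, 7417 to 19335 CPM at 2 months and 6472 to 20429 CPM at 24 months. The 8 fibroblast markers summed to 4376 CPM at postnatal day 3, 0.0970 to 92.8 CPM at 2 months and 0 to 930 CPM at 24 months, where Col14a1, Mfap4, Pi16, Clec3b and Scara5 were at 0.

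Sequence upstream of the start was at hand for 7 of the 10 genes (RefSeq, GRCm38.p6). Those of P4hb, Plod1 and Serpinh1 are shown because these genes stood lower at 24 months than at 2 months and their 250 upstream bases hold no annotated exon. Capitals mark ACGTG or GCGTG on either strand, the core letters of the hypoxia response element, since prolyl and lysyl hydroxylase genes are textbook targets of hypoxia-inducible factors. P4hb lies on the minus strand at chr11:120573254-120573503, Plod1 on the minus strand at chr4:147936777-147937026 and Serpinh1 on the minus strand at chr7:99353240-99353489, each printed 5′ to 3′ in the direction of its gene.
P4hb: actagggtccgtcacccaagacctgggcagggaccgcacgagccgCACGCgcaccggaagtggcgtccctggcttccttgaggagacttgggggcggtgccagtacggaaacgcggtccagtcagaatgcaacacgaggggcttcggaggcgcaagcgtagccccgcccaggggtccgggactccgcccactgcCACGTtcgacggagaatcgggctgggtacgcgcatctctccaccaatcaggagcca
Plod1: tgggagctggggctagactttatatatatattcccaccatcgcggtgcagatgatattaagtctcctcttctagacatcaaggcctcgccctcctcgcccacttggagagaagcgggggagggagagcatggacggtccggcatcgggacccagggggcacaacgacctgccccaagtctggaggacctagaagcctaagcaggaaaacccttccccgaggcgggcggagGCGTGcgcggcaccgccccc
Serpinh1: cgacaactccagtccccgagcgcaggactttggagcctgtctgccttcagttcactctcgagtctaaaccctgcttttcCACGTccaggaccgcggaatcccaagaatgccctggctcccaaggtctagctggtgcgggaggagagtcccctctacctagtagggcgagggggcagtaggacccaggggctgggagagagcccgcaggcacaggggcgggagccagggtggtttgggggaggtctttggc
Either core was present upstream of 7 of the 7 genes, against 38.6% of 32851 upstream regions of the same length. Those regions were not matched for base content, so the difference is not read as particular to these letters. The match nearest to the start began 56 bases before it in P4hb and 20 bases before it in Plod1. P4ha1, P4ha2 and Plod3 each held 1 match of ACGTG, and P4ha1, P4ha2, Plod3 and Pcolce held 2, 2, 3 and 1 of GCGTG. The letters CCAAT were found upstream of P4hb and Plod3 only among the 7, and in 33.8% of all regions. Those of GGGCGG were found upstream of all of the 7 but Plod3, and in 32.7% of all regions. TATAAA was found upstream of Plod1 only (12.4% of regions), and GAANNTTC, with N for any base, upstream of none (6.69%). These matches describe letters and show no binding.

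The P4ha1 gene (GRCm38 chr10:59323296-59373304) and the P4ha2 gene (chr11:54100095-54131665) encode the catalytic α subunits of prolyl 4-hydroxylase, and P4hb (chr11:120560298-120573253) encodes its β subunit, protein disulfide isomerase, which also folds other proteins. P4hb had the highest mean of the 3 per kb of transcript at each age. Its level was 3592 CPM on the postnatal day 3 plate, 1637, 2556 and 2232 CPM on plates 1, 3 and 4, and 1261, 1228 and 626 CPM on plates 2, 5 and 12. The 3 ages did not overlap. The mean at 24 months, 1038 ± 358 CPM (SD, n = 3 plates), was below that at 2 months, 2142 ± 466 CPM (SD, n = 3 plates), a log2 fold of -1.04 with 1 CPM added to each mean. Without plate 3 or plate 12 this fold was -0.90 or -0.78, under 2-fold. P4ha1 stood at 419 CPM at postnatal day 3, at 305, 188.6 and 239.6 CPM on the 2-month plates and at 335, 103.1 and 1.24 CPM on those of 24 months. The adult plates overlapped, with a log2 fold of -0.73 that was -2.21 without plate 2, where the remaining plates no longer overlapped. P4ha2 stood at 911 CPM at postnatal day 3, at 244.6, 241.1 and 376 CPM on the 2-month plates and at 1044, 0 and 681 CPM on the 24-month plates. The oldest age thus lay on either side of the 2-month plates, while the postnatal day 3 plate was 3.17 times the 2-month mean. Without plate 5, the one at 0, P4ha2 lay above all 2-month plates (log2 fold 1.58).

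**Figure D1:**
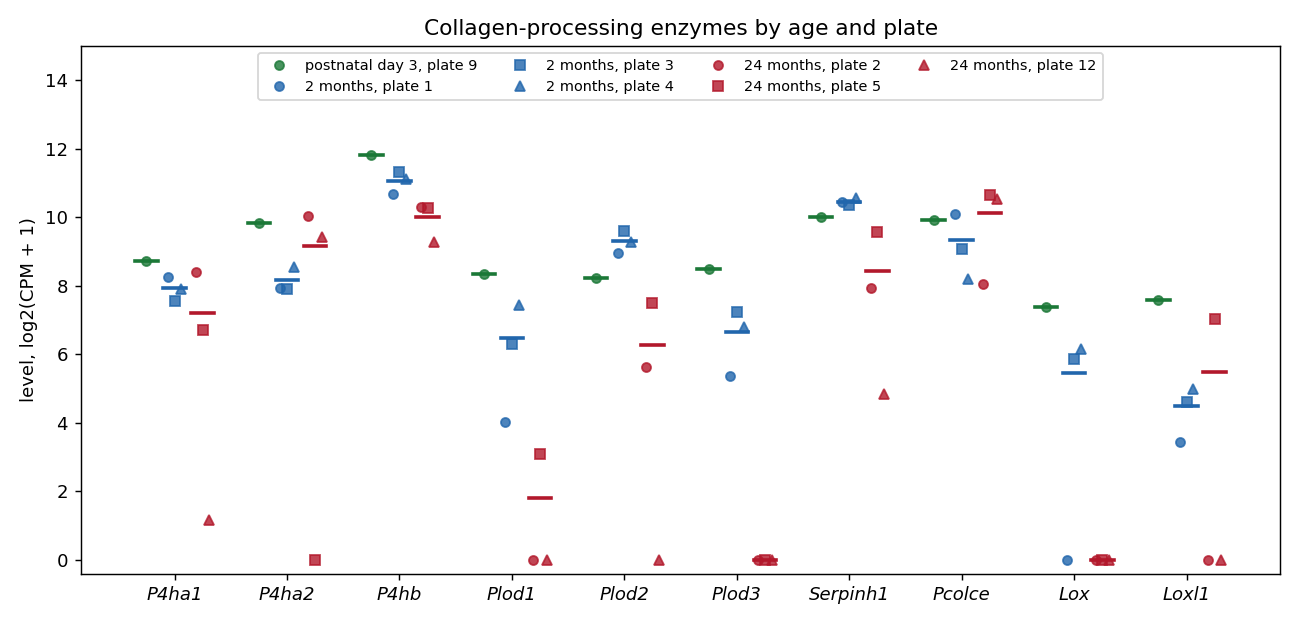
Level of each collagen-processing enzyme on each plate, as log2(CPM + 1) on the vertical axis, with genes on the horizontal axis, 1 point per plate, colours for the ages and a short line at the log2 of the age's mean CPM plus 1. Plod3 and Lox lie at 0 on all 3 plates of 24 months, and the plates of 24 months spread over a wider range than those of 2 months for P4ha1, P4ha2 and Serpinh1.

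Each of the 3 lysyl hydroxylases was lower on every 24-month plate than on any 2-month plate. Of 8788 genes tested, 29.7% were likewise without overlap and at least 2-fold lower. Plod1 (chr4:147909753-147936767), the hydroxylase of helical lysines, stood at 325 CPM at postnatal day 3, at 15.4, 77.5 and 171.2 CPM on plates 1, 3 and 4 and at 0, 7.56 and 0 CPM on plates 2, 5 and 12. Plod3 (chr5:136987019-136996648), which also adds glucose to the galactose on hydroxylysine, stood at 355 CPM at postnatal day 3, at 40.7, 148.6 and 109.3 CPM on the 2-month plates and without a read on the 24-month plates. Both were highest at postnatal day 3 and lowest at 24 months, with no overlap between ages. For Plod1 the closest plates, 1 and 5, each rested on a single cell, 1 of 15 and 1 of 5, which held all its reads there. On plate 1 the top cell also held 96.4% of the Plod3 reads. Plod2 (chr9:92542223-92608428), the hydroxylase of the lysines in the chain ends, had another order: 296 CPM at postnatal day 3, then 493, 769 and 619 CPM on the 2-month plates and 48.3, 181.4 and 0 CPM on the 24-month plates. It was the only gene of the 10 to meet the size rule below as lower at postnatal day 3 than at 2 months. The log2 folds of 24 against 2 months were -4.66 for Plod1 and -3.02 for Plod2. For Plod3, 3 reads over the 24-month plates would make 0.0696 CPM, 1429-fold below the 2-month mean. That figure counts reads and not the 15 cells, whose reads of a gene are not independent, so it is no bound on the fold. The folds of Plod3 and Plod1 rest on the cell filter: with all wells used they were -0.42 and -1.44, with plates that overlapped, while that of Plod2 was -4.03. Of the exonic bases of Plod3, 11.7% also lie in Znhit1 on the opposite strand, and reads there cannot be assigned without strand.

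Within the lysyl hydroxylases, the mixture also differed. Per kb of transcript, Plod2 made up 27.9% of the family's level at postnatal day 3 and 88.7%, 75.2% and 66.2% on plates 1, 3 and 4. Plod1 and Plod3 made up 34.6% and 37.5% at postnatal day 3. On plates 2 and 5 Plod2 made up 100% and 95.5%, and plate 12 held no read of any of the 3. In single cells thinned to 50000 reads, Plod2 was the only one of the 3 with reads in 71 cells at 2 months (46.1%) and in 17 at postnatal day 3 (25%). All 3 were found together in 3 and 6 cells. Of the α subunits of prolyl 4-hydroxylase, P4ha2 made up 79.5% per kb at postnatal day 3 and 58.9%, 69.5% and 73.7% at 2 months. Reads of both α subunits were found together in 41.2% of cells at postnatal day 3 (28 of 68), against 12.3% at 2 months and 6.67% at 24 months (1 of 15).

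**Figure D2:**
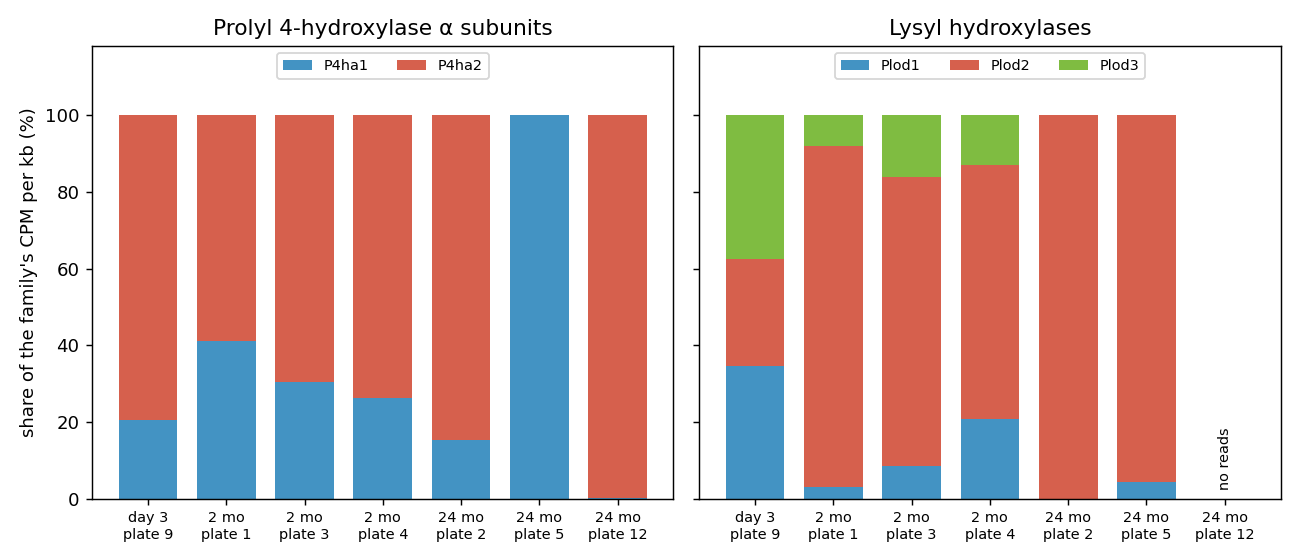
Share of each gene in the summed CPM per kb of the prolyl 4-hydroxylase α subunits (left) and the lysyl hydroxylases (right), in percent on the vertical axis, with 1 bar per plate on the horizontal axis. Plod2 is the smallest part of the lysyl hydroxylase bar at postnatal day 3 (27.9%) and the largest on every plate of 2 months.

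Serpinh1 (chr7:99345376-99353239) encodes the collagen chaperone HSP47. It stood at 1018 CPM at postnatal day 3, at 1401, 1304 and 1514 CPM on plates 1, 3 and 4 and at 243.9, 765 and 27.5 CPM on plates 2, 5 and 12. The 2-month plates had an SD of 105.3 CPM (n = 3), and the highest 24-month plate lay below the lowest of them. The log2 fold of 24 against 2 months was -2.02. Pcolce (chr5:137605103-137613784), the enhancer of the procollagen C-proteinase, stood at 978 CPM at postnatal day 3, at 1102, 541 and 291 CPM on the 2-month plates and at 262.1, 1617 and 1469 CPM on the 24-month plates. It had no order by age: plates of 2 and 24 months overlapped, and the log2 fold was 0.79, or 1.26 with no overlap when plate 2 was left out. Plate 1 rested on 1 of its 15 cells, which held 99.996% of the plate's Pcolce reads.

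The lysyl oxidases were the least abundant of the 10 per kb at postnatal day 3 and 2 months. Lox (chr18:52516067-52529867), which oxidises lysines of collagen and elastin, stood at 165.2 CPM at postnatal day 3, at 0, 56.96 and 71.03 CPM on the 2-month plates and had no read in any 24-month cell. Since plate 1 was also at 0, the adult ages overlapped for Lox. For Lox, 3 reads over the 24-month plates would lie 613-fold below the 2-month mean, which likewise counts reads and not the 15 cells. With all wells used Lox had reads at 24 months and a log2 fold of -2.13. Loxl1 (chr9:58287738-58313186), a paralogue linked to elastic fibres, stood at 191.5 CPM at postnatal day 3, at 9.90, 23.3 and 30.9 CPM on the 2-month plates and at 0, 130.5 and 0 CPM on the 24-month plates. Both genes were higher at postnatal day 3 than on any 2-month plate, with log2 folds of 1.93 for Lox and 3.10 for Loxl1. For 24 against 2 months the fold of Loxl1 was 0.99, and -4.48 without plate 5, which held all its reads at that age.

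Levels of different genes were compared per kb of the longest protein-coding transcript. At 2 months the order was P4hb at 749 CPM per kb (plates 572 to 894), Serpinh1 at 618 (573 to 666), Pcolce at 396 (178.8 to 678), Plod2 at 171.2 (134.6 to 210.1), P4ha2 at 126.9 (106.5 to 166.2), P4ha1 at 60.4 (46.7 to 75.4), Plod3 at 30.3, Plod1 at 27.2, Lox at 8.999 and Loxl1 at 6.48. Plate ranges overlapped between P4hb and Serpinh1, between Serpinh1 and Pcolce, between Pcolce and Plod2 and between Plod2 and P4ha2, and between neighbours among the last 4 genes. They did not overlap between P4ha2 and P4ha1 or between P4ha1 and Plod3, whose highest plate was at 45.3. At postnatal day 3 Plod2 had rank 8 of 10 with 80.8 CPM per kb, behind Plod3, P4ha1 and Plod1 at 108.4, 103.6 and 100.2. At 24 months Pcolce led with 686 CPM per kb (161.2 to 995), overlapping P4hb at 363 (218.6 to 441).

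Detection in single cells was compared at 50000 reads per cell, since depth differed between ages. Whether thinning also evens out the number of genes per cell, lowest at 24 months, was not tested. Intervals are exact 95% binomial intervals. They cover counting error only, since PCR copies are not separate molecules and no cell is known to be a separate animal. The share of cells with P4hb was 97.1% at postnatal day 3 (89.8% to 99.6%), 77.3% at 2 months (69.8% to 83.6%) and 40% at 24 months (16.3% to 67.7%). Without thinning these shares were 98.5%, 80.5% and 46.7%. Serpinh1 was detected in 98.5%, 88.3% (82.2% to 92.9%) and 60% (32.3% to 83.7%), and without thinning in 98.5%, 90.3% and 66.7%. Pcolce was found in 69.1%, 33.1% (25.8% to 41.1%) and 66.7% (38.4% to 88.2%), and without thinning in 70.6%, 40.3% and 66.7%. Its higher share at 24 than at 2 months rests on the cell filter: with cells of at least 500 genes in place of 1000, it was found in 36.9% of 65 cells at 24 months (25.3% to 49.8%), against 28.8% at 2 months (22.4% to 35.9%). Plod2 was found in 52.9%, 66.2% and 26.7% (61.8%, 73.4% and 33.3% without thinning), so its share was highest at 2 months. The intervals of 2 months and postnatal day 3 overlapped for Plod2.

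The other 6 genes were found most often at postnatal day 3. P4ha1 was found in 57.4%, 33.1% and 20% of cells, P4ha2 in 55.9%, 25.3% and 33.3%, and Plod1 in 30.9%, 14.9% and 6.67%. Loxl1 was found in 32.4%, 9.74% and 13.3%. Lox was found in 29.4% (19% to 41.7%) at postnatal day 3, 7.14% at 2 months (3.62% to 12.4%) and 0 of 15 at 24 months. Plod3 was found in 30.9% and 14.9% and likewise in 0 of 15. For either gene a count of 0 allows a share of up to 20% by the limit of 3 counts, and the exact interval reaches 21.8%. With cells of at least 500 genes, the shares at 24 months moved to 4.62% for P4ha1, 7.69% for P4ha2, 3.08% for Plod1, 9.23% for Plod2, 1.54% for Plod3 and 3.08% for Lox, so that P4ha2 was then found less often than at 2 months (23.4%). Without thinning, the shares at postnatal day 3 and 2 months were 64.7% and 41.6% for P4ha1, 35.3% and 16.9% for Plod1, 38.2% and 16.9% for Plod3, 35.3% and 7.14% for Lox and 39.7% and 12.3% for Loxl1. At 24 months P4ha1 then moved to 33.3%, while P4ha2, Plod1, Plod3, Lox and Loxl1 kept their shares. The median number of the 10 genes found in a cell was 6 at postnatal day 3, 4 at 2 months (plates 2, 4 and 4) and 2 at 24 months (plates 2, 4 and 2). The median number of all genes per cell before thinning had the same order: 2234.5 on plate 9, 1698 to 1777 on the 2-month plates and 1096 to 1227 on the 24-month plates. No share of all genes with this order stands beside the values of the 10. Lower detection at 24 months also goes with 0 cells holding Cnmd reads there, against 61.8% at postnatal day 3 and 69.5% at 2 months. The part of either in the lower detection was not tested.

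**Figure D3:**
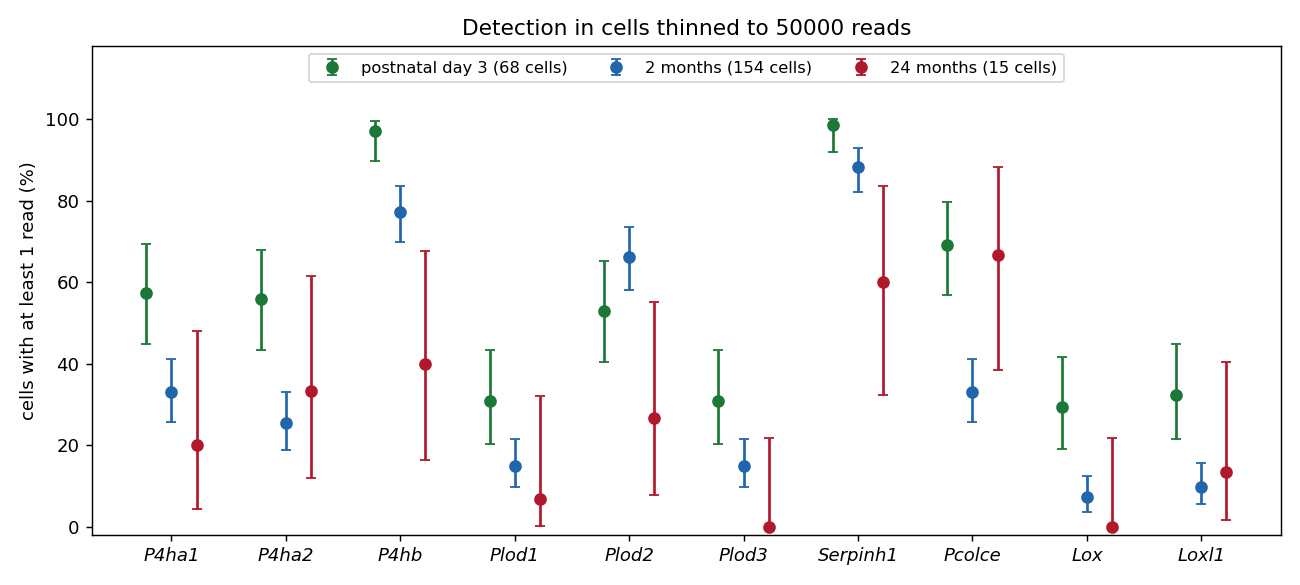
Percent of passing cells with at least 1 read after thinning to 50000 reads (vertical axis) for each gene (horizontal axis), with the exact 95% binomial interval as bars and colours for the ages. The intervals of 24 months are wide because that age has 15 cells, and P4hb is found in 97.1%, 77.3% and 40% of cells from the youngest to the oldest age.

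To set the folds beside those of other genes, a size rule was used: at least 10 CPM at the higher age, means at least 2-fold apart, and no overlap between the plates of the ages. For 24 against 2 months, P4hb, Plod1, Plod2, Plod3 and Serpinh1 met it as lower, 5 of 10, where 29.7% of 8788 genes did. None of the 10 met it as higher, where 1.54% of genes did. The median log2 fold of the 10 genes was -1.53, unchanged with Plod3 and Lox each set at 3 reads over the 24-month plates. That of all genes tested was -1.57. The whole group therefore lay where the typical gene lay, and nothing particular to it is read from the median. The 24-month plates hold 5 cells each, so that a gene used by few cells can be missed on a whole plate.

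In cells without a Cnmd read after thinning to 50000 reads, the 5 lower calls were lost. This alternative was chosen after seeing the data, because Cnmd, the cartilage glycoprotein chondromodulin, was at 0 in all 15 cells of 24 months. It left 8, 21 and 18 cells on plates 1, 3 and 4, all 15 at 24 months and 26 at postnatal day 3. The split did not remove all cartilage gene reads. In these cells Col2a1 stood at 1032, 20855 and 10778 CPM on plates 1, 3 and 4. On plates 2, 5 and 12 it stood at 415, 3362 and 0 CPM. In these cells, 0 of 10 genes met the rule as lower at 24 months, where 10.5% of all genes did, and 0 as higher, where 1.77% did. P4hb then stood at 892, 1418 and 451 CPM at 2 months, inside and outside the 24-month range of 626 to 1261 CPM, with a log2 fold of 0.17. Serpinh1 stood at 1049, 582 and 591 CPM, overlapping 765 CPM on plate 5, with a log2 fold of -1.10. The folds of Plod1 and Plod2 were -3.49 and -2.89, but plates overlapped: on plate 1, with 8 cells, Plod1 was at 0 and Plod2 at 0.130 CPM. Plod3 was at 0 on plates 1 and 4, as at 24 months, and at 226.4 CPM on plate 3 alone. Whether the difference in cartilage cells makes the lower levels was not tested. Fewer cells using a gene and less RNA in each cell cannot be told apart in these sums.

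**Figure D4:**
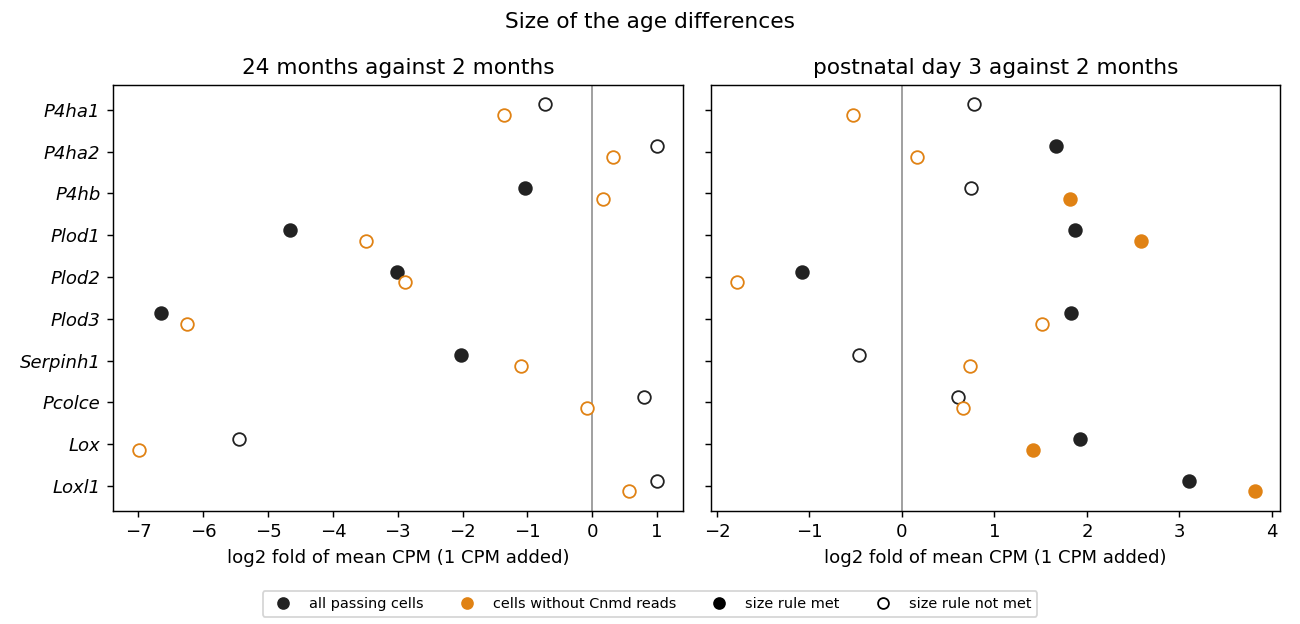
Log2 fold of mean CPM, with 1 CPM added, on the horizontal axis and the 10 genes on the vertical axis, for 24 against 2 months (left) and postnatal day 3 against 2 months (right). Black points are all passing cells and orange points the cells without Cnmd reads, filled where the size rule was met: 5 black points are filled as lower on the left and no orange point is. On the left, the points of Plod3 and Lox are set by the 1 CPM added, since neither gene has a read at 24 months.

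For postnatal day 3 against 2 months, P4ha2, Plod1, Plod3, Lox and Loxl1 met the rule as higher, 5 of 10, where 28.2% of 9639 genes did. Plod2 met it as lower, 1 of 10, where 10.1% did. The median log2 fold was 1.22 for the 10 genes and 0.23 for all genes tested. The fibroblast markers moved the same way: all 5 of the 8 that could be tested met the rule as higher, with a median log2 fold of 8.34, among them Postn at 2704 against 7.33 CPM. Of the 11 fibrillar collagens 6 were higher and 1 lower (median log2 fold 1.52), and the 1 muscle marker tested was higher (2.68). The osteoblast and cartilage lists did not move this way: 6 of the 8 osteoblast markers were lower (median log2 fold -4.12), as was 1 of the 8 cartilage markers (-0.37). The part of these shifts in the higher levels of the enzymes was not tested. The folds were 1.66 for P4ha2, 1.87 for Plod1, 1.83 for Plod3 and -1.08 for Plod2, which was -0.91, under 2-fold, without plate 3. Without Cnmd reads, P4hb, Plod1, Lox and Loxl1 met it as higher, 4 of 10, where 37.2% of genes did, and 0 met it as lower, where 5.38% did. Postnatal day 3 is a single plate, so its own spread is unknown.

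For 24 months against postnatal day 3, 8 of 10 met the rule as lower, all but P4ha2 and Pcolce, where 53.7% of 9047 genes did, and 0 met it as higher, where 2.59% did. The median was -1.86, against -1.94 for all genes tested. The folds ran from -1.51 for P4ha1 and -1.56 for Serpinh1 to -6.53 for Plod1, and Plod3 and Lox were at 0 reads. That of P4ha1 was -0.93, under 2-fold, without plate 12. P4ha2, at -0.66, met the rule as lower without plate 2 (-1.42). Of the 5 fibroblast markers tested here, 4 were lower, with a median of -5.17, and so were 7 of the 8 cartilage markers (-8.24). Of the 8 osteoblast markers 5 were higher and 1 lower, with a median of 4.84. The part of these markers was not tested either. Without Cnmd reads 6 met it as lower, where 50.8% of genes did, and 0 as higher, where 3.03% did. This comparison shares its samples with the others. It is the only one with both ages in 1 batch as labelled, batch 3, which holds plates 9, 2 and 12. Within that batch the same 8 genes were lower, with a fold of -1.93 for P4hb and -2.90 for Serpinh1. The share of all genes lower within the batch was not computed, so this count is not read as a result about the 10 genes. For 24 against 2 months, batch and age cannot be told apart, as no batch has plates of both.

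The 10 genes together took 0.825% of gene reads at postnatal day 3, 0.525%, 0.591% and 0.565% on the 2-month plates and 0.320%, 0.403% and 0.280% on the 24-month plates, with no overlap between ages. As a mean of the shares of single cells, plate 1 stood at 0.327%, inside the 24-month range of 0.273% to 0.391%, so the adult ages then overlapped. Set against their substrate, the order was lost. Per 100 reads of the 11 fibrillar collagen genes there were 6.29 reads of the enzymes at postnatal day 3, 7.15, 10.2 and 7.55 at 2 months and 7.94, 3.69 and 17.95 at 24 months. Of the other 26 collagen biosynthesis genes, 23 were tested for 24 against 2 months, and 0 were higher and 6 lower, with a median log2 fold of -0.57. Among the 6 were P3h4 (-5.04), a partner in lysine hydroxylation, the collagen prolyl isomerases Fkbp10 (-1.67) and Fkbp14 (0 reads at 24 months), and the lysyl oxidase Loxl3 (-2.26). For postnatal day 3 against 2 months 7 of 23 were higher and 3 lower, and for 24 months against postnatal day 3, 0 of 23 were higher and 10 lower. Of all genes tested, 1.54% were higher and 29.7% lower for 24 against 2 months. These shares were 28.2% and 10.1% for postnatal day 3 against 2 months, and 2.59% and 53.7% for 24 months against postnatal day 3. The counts of these lists are therefore not read as results about their genes. Of the 12 general folding genes of the endoplasmic reticulum, 11 were tested, and 1 was higher (Canx, 1.40) and 1 lower (Dnajb9, 0 reads at 24 months) for 24 against 2 months. Of the 11 fibrillar collagens, 10 were tested, and Col5a1 was higher (3.17) and 5 were lower, among them the cartilage collagen gene Col2a1 (-5.20).

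At 24 months 1 cell often carried most of a plate's reads of a gene. On plate 5 a single cell, at 6678 CPM, held 99.8% of the P4hb reads, and it was also the cell with the most Plod2, at 763 CPM. On plate 2, P4hb came from 2 of 5 cells, at 3394 and 2671 CPM, and P4ha1 from 1 cell, at 1762 CPM, which also held the highest P4ha2 level, at 3281 CPM. That cell had no read of any fibrillar collagen gene listed for single cells (Col1a1, Col1a2, Col2a1, Col3a1), and no P4hb. On plate 12, 1 cell held 98.8% of the P4ha2 reads. Pcolce was found in more cells, 3, 4 and 3 of 5 on plates 2, 5 and 12. Even so, the top cell held 48.6%, 58.5% and 75.4% of its reads on these plates. Serpinh1 was found in all 5 cells of plate 5, at 125.5 to 1562 CPM. At postnatal day 3 the top cell held 4.43% of the P4hb reads and 22.4% of the Lox reads of its 68 cells.

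**Figure D5:**
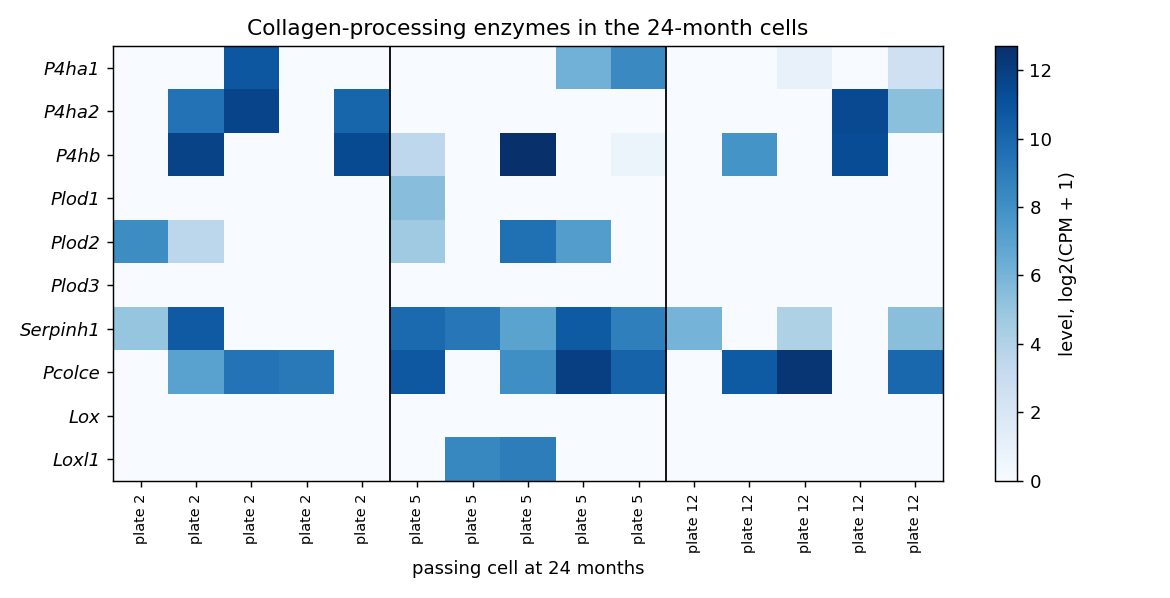
Level of each gene, as log2(CPM + 1) in colour, in the 15 passing cells of 24 months (horizontal axis, grouped by plate, with black lines between plates); genes are on the vertical axis. Rows of Plod3 and Lox are empty, and Pcolce is seen in 10 of the 15 cells.

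Among the cells of plates 9, 3 and 4, which hold 68, 70 and 69 cells, the genes varied mostly apart from each other. The median Spearman's rho between pairs of the 10 genes was 0.0881, 0.0416 and 0.0519, on counts thinned to 50000 reads; cells of a plate share library preparation and these counts are sparse. By mean rho over the 3 plates, the gene most like P4hb was Cnmd (0.19, 0.48 and 0.62 on plates 9, 3 and 4), and that most like Serpinh1 was Col11a1, a minor chain of cartilage fibrils (0.02, 0.58 and 0.69), among 1366 genes. For Pcolce it was Col1a2 (0.55, 0.44 and 0.22) and for Lox it was Col5a2 (0.56, 0.34 and 0.29). The values of Serpinh1 and P4hb were thus larger on the 2-month plates than at postnatal day 3, and those of Pcolce and Lox the reverse. For Lox the 2-month values rest on 4 of 70 and 7 of 69 cells with reads on plates 3 and 4, against 20 of 68 on plate 9.

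The cells of these plates were also divided by at least 1 Cnmd read after thinning, which gave 42 and 26 cells on plate 9, 49 and 21 on plate 3 and 51 and 18 on plate 4. P4hb was higher in the cells with Cnmd on each plate: 3787 against 3257 CPM, 3043 against 1418 CPM and 2712 against 451 CPM. Lox was lower in them on each plate: 63.5 against 339.9 CPM, 38.2 against 100.9 CPM and 15.3 against 277.99 CPM. It was found in 8 of 42 against 12 of 26 cells on plate 9, 2 of 49 against 2 of 21 on plate 3 and 2 of 51 against 5 of 18 on plate 4. Serpinh1 was higher in the cells with Cnmd on plates 3 and 4 (1613 against 582 CPM and 1763 against 591 CPM) and lower on plate 9 (896 against 1229 CPM). Pcolce likewise had no single direction, with 463 against 1863 CPM on plate 9 and 605 against 389.7 CPM on plate 3. On plate 9 the cells without Cnmd also carried more Col1a1, 47886 against 12285 CPM. Plod2 was detected more often in the cells with Cnmd on all 3 plates, in 27 of 42 against 9 of 26 on plate 9, although its summed level was higher in them on plate 9 only.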

How the data were processed

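Single cells sorted from mouse long bones were read by SmartSeq2. The deposited values are expected counts per gene made by the authors. Per the submitters' processing notes, the tools were bcl2fastq 2.18, STAR 2.4 and RSEM 1.2.21 and the build GRCm38.p6; the annotation release is not given in the sources used here. Values were rounded, 92 spike-in rows were kept out of totals, and 28 rows named by a number only were kept in totals and out of the genes tested. Plate, well and age tied each column to its sample; 1 column was not used.

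On each plate the counts of its passing cells were added up and scaled to CPM; an age is the plain average of its plates. Cells were thinned at random for detection and correlations. Gene positions and lengths came from GENCODE annotation of GRCm38. The size rule was tested on simulated data at the real plate sizes; with plates of 5 cells it missed most genes made higher and called some of them lower. The genes named are the 10 members and genes of fixed lists that met the rule. The members and lists were chosen with earlier results of these data known. The tools were Python 3.11.15 with scipy 1.17.1 and pandas 2.3.3 and, for TMM factors only, edgeR 4.0.16. Alternatives covered the cell filter, scaling, aggregation, pseudocount (0.1 and 10 CPM), the minimum level, rounding, thinning depth and each plate left out.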

Additional observations from a re-analysis of the deposited data

How the results depend on the processing

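The 5 genes lower at 24 than at 2 months became 0 in cells without Cnmd reads, chosen after seeing the data, where the log2 fold of P4hb turned to 0.17. The means of Plod1, Plod2, Plod3 and Serpinh1 stayed over 2-fold lower there, but with plates that overlapped. Of all genes, 29.7% were lower in all passing cells and 10.5% in these cells. The cause was not tested. Leaving out 1 plate at a time gave 4 to 6 lower and 0 to 1 higher, with a median from -3.92 to -1.13; the 1 higher gene was Pcolce without plate 2 and P4ha2 without plate 5. With cells of at least 500 genes, and with no cell filter, 1 was higher (Pcolce and Loxl1, respectively), Plod1 and Plod3 were no longer lower and P4ha1 was. Both settings also made P4ha1 and Pcolce higher at postnatal day 3 than at 2 months, and for 24 months against postnatal day 3 made P4ha2 lower and ended the call of Loxl1. P4hb lost its call for 24 against 2 months also with the mean of per-cell CPM, without plate 3 and without plate 12.

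For postnatal day 3 against 2 months, the 1 lower gene, Plod2, became 0 with cells of at least 500 genes, with no cell filter, with totals without collagen genes and in cells without Cnmd reads. Plates left out gave 5 to 6 higher, 0 to 1 lower (0 without plate 3) and a median from 1.22 to 1.34. For 24 months against postnatal day 3 they gave 7 to 9 lower, 0 higher and a median from -3.23 to -1.44. No share of all genes stands beside these counts either.

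Cells of at least 2000 genes and 200000 reads left 1 cell at 24 months, with medians of -5.43, 1.00 and -6.23 for the 3 comparisons in the order above and with P4hb at 0.15 against 2 months and Serpinh1 at 0.58 against postnatal day 3. The members' share of reads moved to 0.776% at postnatal day 3 and 0.441% at 2 months as a mean of per-cell shares, and to 0.492% at 2 months and 0.253% at 24 months with cells of at least 500 genes. TMM factors, the pseudocounts, the minimum level and rounding moved no count of genes by over 1.5 times and no median by more than the spread between plates. No paired analysis was possible because the labels name no animal and replicate numbers only name wells. The 15 cells of 24 months limit every statement on that age.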
